A study of Mus musculus with 12 samples.

Results

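The 10 genes described here are Lgr5, Rnf43, Znrf3, Axin2, Nkd1, Tbx3, Glul, Slc1a2, Rhbg and Lect2, a set of Wnt targets and pericentral hepatocyte genes outside the cytochrome P450 family. They were chosen by symbol, 10 of the 24033 symbols in a deposited table of log2 expression values, and each had a single entry in it. The table holds liver RNA of wild-type C57BL/6 female mice in 12 libraries, 3 in each of 4 groups. Intact females received vehicle (PBS) or dexamethasone, and ovariectomized females received vehicle or dexamethasone, with livers taken 6 h after treatment at 1 mg/kg. Dexamethasone is a synthetic glucocorticoid that activates the glucocorticoid receptor, and ovariectomy removes the ovaries, the main source of ovarian hormones. The design asks how the hepatic response to glucocorticoid differs between a normal and a hypogonadal state. The labels give no ages and do not say that the replicates of a group are separate animals, so every p-value here measures the spread between these libraries, which may be technical.

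In the liver lobule, blood flows from the portal triads to the central vein, and hepatocytes along this path carry out different tasks. Endothelial cells of the central vein secrete Wnt ligands and R-spondin 3, and the hepatocytes next to them respond through beta-catenin, which enters the nucleus and acts with TCF factors on its target genes. In those pericentral cells the pathway maintains glutamine synthetase and uptake of glutamate and ammonium, and it also induces its own inhibitors, among them Axin2, Rnf43, Znrf3 and Nkd1. A liver homogenate mixes all zones, so a lower level in these libraries can come from fewer cells of a type or from less RNA per cell, which cannot be told apart here.

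The promoters of 6 of the 10 genes were found in the RefSeq promoter table of build GRCm38.p6, which runs from 250 bases before to 50 bases after a start of transcription and gave 7 promoters, 2 of them for Rnf43. Lgr5, Znrf3, Tbx3 and Rhbg had no entry. A total of 3 motifs was searched on both strands: CTTTGAT, the core that TCF/LEF factors bind, AGAACA, a single arm of the glucocorticoid response element, and GNACANNNTGTNC, the paired form of that element. The 4 promoters below are those of the feedback inhibitors Axin2 and Rnf43, which were lower after dexamethasone, and of the glutamate-handling genes Glul and Slc1a2. They are printed 5′ to 3′ on the plus strand, on which all 4 genes lie, in lower case with motif matches in capitals, and they cover chr11:108920099-108920398, chr11:87662837-87663136, chr1:153899679-153899978 and chr2:102706188-102706487 in that order.
Axin2: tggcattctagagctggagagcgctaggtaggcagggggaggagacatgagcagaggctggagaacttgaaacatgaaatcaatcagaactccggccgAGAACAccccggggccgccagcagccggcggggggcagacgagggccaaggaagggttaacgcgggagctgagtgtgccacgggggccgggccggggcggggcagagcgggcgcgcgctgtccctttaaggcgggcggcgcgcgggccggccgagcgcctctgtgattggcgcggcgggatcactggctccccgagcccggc
Rnf43: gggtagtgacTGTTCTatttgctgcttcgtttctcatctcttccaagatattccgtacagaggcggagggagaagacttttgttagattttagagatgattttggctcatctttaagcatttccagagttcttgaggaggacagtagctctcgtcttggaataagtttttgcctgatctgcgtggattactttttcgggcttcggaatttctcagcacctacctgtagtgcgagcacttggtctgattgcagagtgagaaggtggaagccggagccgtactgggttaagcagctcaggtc
Glul: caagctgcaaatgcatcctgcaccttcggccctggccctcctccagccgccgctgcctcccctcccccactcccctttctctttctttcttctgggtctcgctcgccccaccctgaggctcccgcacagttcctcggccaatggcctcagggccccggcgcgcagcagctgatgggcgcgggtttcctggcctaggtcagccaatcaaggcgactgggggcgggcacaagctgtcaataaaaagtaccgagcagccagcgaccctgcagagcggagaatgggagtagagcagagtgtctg
Slc1a2: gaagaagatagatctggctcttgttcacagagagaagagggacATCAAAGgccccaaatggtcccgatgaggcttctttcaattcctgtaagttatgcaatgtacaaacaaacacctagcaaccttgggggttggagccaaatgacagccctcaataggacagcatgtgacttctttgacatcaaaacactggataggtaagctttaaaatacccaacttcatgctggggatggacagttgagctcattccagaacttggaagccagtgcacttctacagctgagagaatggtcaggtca
The AGAACA match of Axin2 lay 152 bases before the start of transcription, and that of Rnf43, on the opposite strand, 240 bases before it. Of all 32851 promoters in the table, 19% held this motif, against 2 of the 7 promoters of these genes. The Slc1a2 promoter held the TCF/LEF core on the opposite strand, 207 bases before the start, and the Lect2 promoter, which is not printed, held it 32 bases before the start. This core was present in 3.73% of all promoters and the paired element in 0.475%, and none of the 7 promoters held the paired element. A match is a description of letters in this window and not evidence of binding, and the printed Glul promoter held none of the 3 motifs. Nor did the other Rnf43 promoter or that of the feedback inhibitor Nkd1, neither of which is printed.

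Values below are levels on the deposited log2 scale, given for replicates 1, 2 and 3 in that order, or differences in level (log2 fold changes) with their SE by limma; each group has n = 3. The adjusted p is that of limma with Benjamini-Hochberg adjustment over the 12965 genes tested, and a gene rose or fell where it was under 0.05. All 10 genes passed the filter on low values. The median level of a library was 8.82 to 8.86, and pairs of replicates had a root mean square difference of 0.172 to 0.32. Replicate 3 of the intact dexamethasone group stood apart: it was the lowest library of its group for 10 of the 10 genes, with a mean deviation of -0.34 from the group mean. It was also below its group mean for 16 of 21 other pericentral genes (mean deviation -0.15) and for 7 of 22 periportal genes (mean deviation 0.16). Replicate 2 of the same group was above the group mean for 10 of the 10 genes, by 0.26 on average. Changes of the 10 genes in intact females are therefore given with and without replicate 3 under a rule. The rule is that replicate 3 ended a call, changed a direction or moved a value by over 1.5 times. Other genes were not held to this rule.

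In intact females, Lgr5 and Rnf43 fell most with dexamethasone, Znrf3, Tbx3 and Axin2 fell by less, and Slc1a2 fell least, while Nkd1 did not pass. In all, 6 of the 10 genes fell and 0 rose at an adjusted p under 0.05, where 25.9% of all genes tested fell and 22.8% rose. The median log2 fold change of the 10 genes was -0.39, against 0.00 for all genes tested. For 5 genes, every dexamethasone library was below every vehicle library, as was the case for 28.6% of all genes. Without dexamethasone replicate 3, 4 of the 10 fell.

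**Figure D1:**
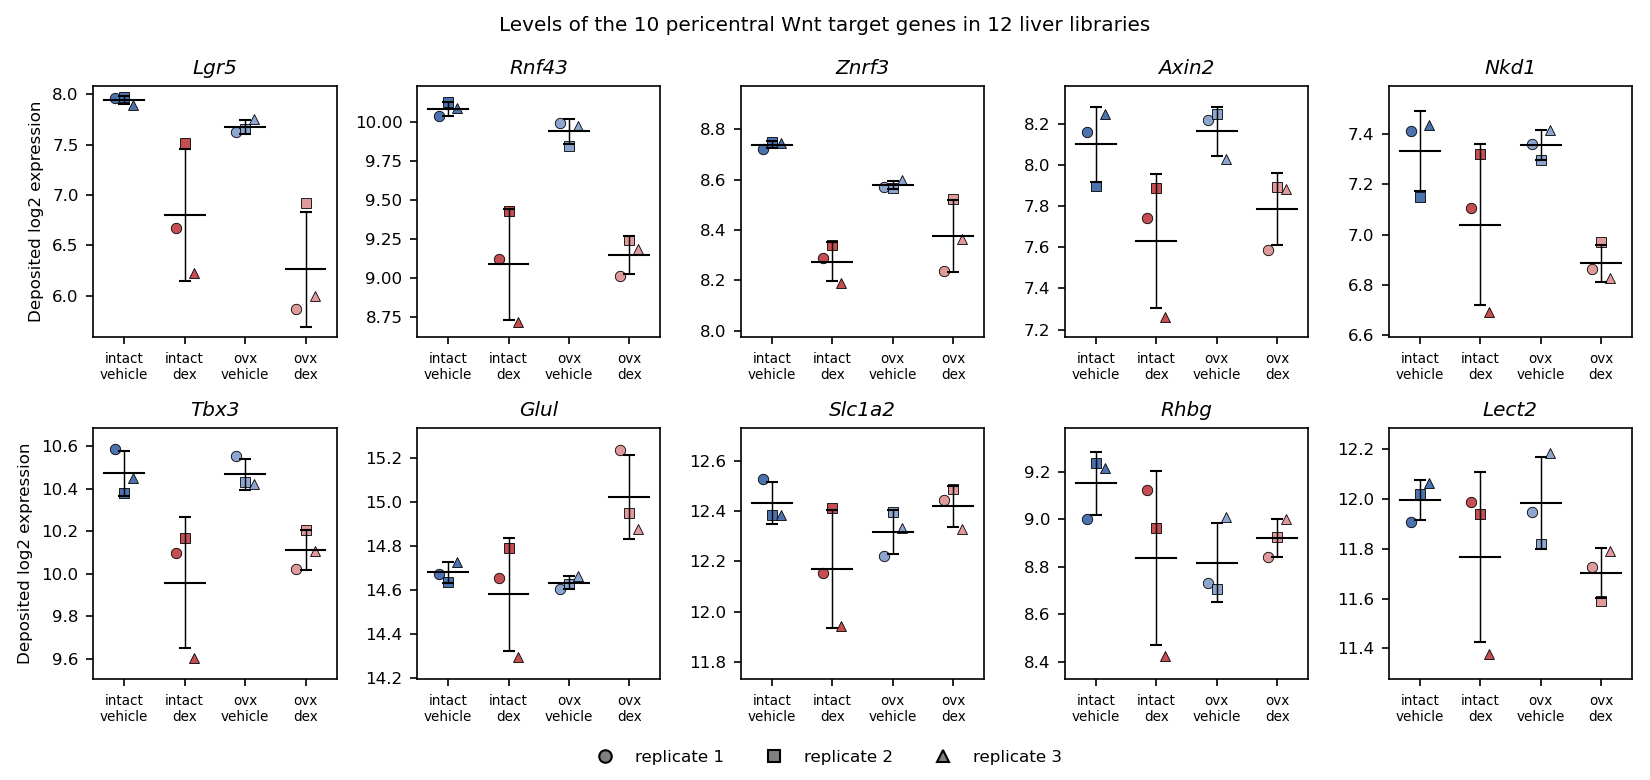
Deposited log2 levels (y axis; its range differs between panels and does not start at 0) of the 10 genes in the 12 libraries, by group (x axis; dex, dexamethasone; ovx, ovariectomized), with marker shape for the replicate and a line and bar for the mean ± SD of 3 libraries. Lgr5 and Rnf43 were lower in every dexamethasone library than in every vehicle library of the same gonadal state, while Glul was higher in the ovariectomized dexamethasone libraries, 14.87 to 15.24, than in the other 3 groups.

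Lgr5 (Entrez 14160) encodes a receptor for R-spondins, which protect Wnt receptors from degradation. Its level was 7.96, 7.97 and 7.90 in the intact vehicle libraries and 6.67, 7.51 and 6.23 in the intact dexamethasone libraries. The treated libraries were all lower and far more spread, with an SD of 0.652 against 0.0406. The difference was -1.14 ± 0.30, a level 2.20-fold lower, adjusted p = 0.00806. In ovariectomized females Lgr5 read 7.62, 7.66 and 7.76 under vehicle and 5.87, 6.92 and 6.00 under dexamethasone, again without overlap. It fell by 1.42 ± 0.30 there, a level 2.67-fold lower, adjusted p = 0.00307. In both gonadal states replicate 2 was the treated library with the highest Lgr5.

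Rnf43 (Entrez 207742) and Znrf3 (Entrez 407821) encode related ubiquitin ligases that remove Frizzled receptors from the cell surface and that R-spondins inhibit through Lgr receptors. Rnf43 read 10.04, 10.13 and 10.09 in intact vehicle libraries and 9.12, 9.43 and 8.72 after dexamethasone. In ovariectomized females it read 9.995, 9.85 and 9.98 under vehicle and 9.01, 9.24 and 9.19 after dexamethasone. The treated libraries were below all vehicle libraries in both states. Rnf43 fell by 1.00 ± 0.14 in intact females (2.00-fold lower, adjusted p = 0.000144) and by 0.79 ± 0.14 in ovariectomized females (adjusted p = 0.000899).

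Znrf3 had the smallest spread of the 10 genes under vehicle, with an SD of 0.0152 in intact and 0.0171 in ovariectomized females. It read 8.72, 8.75 and 8.75 in intact vehicle libraries and 8.29, 8.34 and 8.19 after dexamethasone. Under ovariectomy it read 8.57, 8.57 and 8.60 with vehicle and 8.24, 8.52 and 8.36 with dexamethasone. No libraries overlapped in either state, but ovariectomized dexamethasone replicate 2 lay close to the vehicle level. Znrf3 fell by 0.47 ± 0.072 in intact females (adjusted p = 0.000318) and by 0.20 ± 0.072 in ovariectomized females (adjusted p = 0.04). The fall in ovariectomized females did not pass without vehicle replicate 1, 2 or 3 or without dexamethasone replicate 1 or 3, with values of -0.14 to -0.21 and an adjusted p of up to 0.158.

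Axin2 (Entrez 12006) encodes a scaffold of the complex that marks beta-catenin for degradation and is a widely used reporter of Wnt signalling. It read 8.16, 7.90 and 8.25 in intact vehicle libraries and 7.74, 7.89 and 7.26 after dexamethasone. The groups were separated by a narrow margin, since vehicle replicate 2 and dexamethasone replicate 2 nearly met. Axin2 fell by 0.47 ± 0.15 (adjusted p = 0.0242). Without dexamethasone replicate 3 the change was -0.29 with an adjusted p of 0.0851, and it also missed the threshold without vehicle replicate 1 (-0.44, adjusted p = 0.0702) or vehicle replicate 3 (-0.40, adjusted p = 0.0878). In ovariectomized females Axin2 read 8.22, 8.25 and 8.03 under vehicle and 7.59, 7.89 and 7.88 under dexamethasone. These did not overlap, and the change of -0.38 ± 0.15 did not pass (adjusted p = 0.069). It passed with library weights (-0.37, adjusted p = 0.00829) and with only the groups compared (-0.38, adjusted p = 0.0237).

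Nkd1 (Entrez 93960) encodes a cytoplasmic antagonist that binds Dishevelled. In intact females it read 7.41, 7.15 and 7.43 under vehicle and 7.10, 7.32 and 6.69 under dexamethasone, with overlap, and the change of -0.29 ± 0.14 did not pass (adjusted p = 0.0976). It was -0.12 without dexamethasone replicate 3 (adjusted p = 0.388) and passed without dexamethasone replicate 2 (-0.43, adjusted p = 0.0165) and with library weights (-0.29, adjusted p = 0.00653). In ovariectomized females it read 7.36, 7.30 and 7.41 under vehicle and 6.86, 6.97 and 6.83 under dexamethasone. Here the treated libraries were all lower, and Nkd1 fell by 0.47 ± 0.14 (adjusted p = 0.0168). That call was lost without vehicle replicate 3 (-0.44, adjusted p = 0.0529) or dexamethasone replicate 3 (-0.44, adjusted p = 0.0547).

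Tbx3 (Entrez 21386), a T-box transcription factor and beta-catenin target in hepatocytes, read 10.59, 10.38 and 10.45 in intact vehicle libraries and 10.10, 10.17 and 9.60 after dexamethasone. Its ovariectomized libraries read 10.55, 10.43 and 10.42 under vehicle and 10.02, 10.21 and 10.11 under dexamethasone. All treated libraries were below all vehicle libraries in both states. Tbx3 fell by 0.52 ± 0.12 in intact females (adjusted p = 0.00462) and by 0.36 ± 0.12 in ovariectomized females (adjusted p = 0.0357). Without dexamethasone replicate 3 the change in intact females was -0.34 and still passed. The fall in ovariectomized females missed the threshold when vehicle replicate 1, 2 or 3 or dexamethasone replicate 1 or 3 was left out, with values of -0.31 to -0.38 and an adjusted p of up to 0.114.

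Among the genes of glutamine synthesis and transport, Glul rose in ovariectomized females and Slc1a2 fell in intact females. Glul (Entrez 14645) encodes glutamine synthetase, the enzyme by which the last hepatocytes before the central vein capture ammonia. It read 14.67, 14.64 and 14.73 in intact vehicle libraries and 14.65, 14.79 and 14.29 after dexamethasone. The groups overlapped and the change of -0.10 ± 0.12 did not pass (adjusted p = 0.514). The sign of that change was positive without dexamethasone replicate 3 (0.04) and after quantile normalization (0.11).

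In ovariectomized females Glul read 14.60, 14.63 and 14.67 under vehicle and 15.24, 14.95 and 14.87 under dexamethasone. Every treated library was higher, and Glul rose by 0.39 ± 0.12 (1.31-fold, adjusted p = 0.0219). The call was lost after quantile normalization (0.23, adjusted p = 0.135) and without vehicle replicate 1 (0.37, adjusted p = 0.0644), vehicle replicate 2 (0.39, adjusted p = 0.0504) or dexamethasone replicate 1 (0.28, adjusted p = 0.0912). Of its 50-base words, 12.6% also occurred in other annotated genes, among them the pseudogene Glns-ps1, so part of its signal is uncertain.

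Slc1a2 (Entrez 20511) encodes a high-affinity glutamate transporter that is enriched in the same pericentral cells. It read 12.53, 12.39 and 12.38 in intact vehicle libraries and 12.15, 12.41 and 11.94 after dexamethasone. These overlapped, and the fall of Slc1a2 by 0.26 ± 0.10 only just passed (adjusted p = 0.0468). It was -0.15 without dexamethasone replicate 3 (adjusted p = 0.183) and -0.08 with the trend on transcript length and GC content removed (adjusted p = 0.597). Leaving out vehicle replicate 1, 2 or 3 or dexamethasone replicate 1 gave values of -0.22 to -0.29 that did not pass either. In ovariectomized females it read 12.22, 12.40 and 12.33 under vehicle and 12.44, 12.49 and 12.33 under dexamethasone, a change of 0.10 ± 0.10 (adjusted p = 0.439).

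Rhbg (Entrez 58176) encodes an ammonium transporter of the Rhesus family, and Lect2 (Entrez 16841) a secreted hepatokine. Rhbg read 8.999, 9.24 and 9.22 in intact vehicle libraries and 9.12, 8.96 and 8.43 after dexamethasone, and 8.73, 8.71 and 9.01 under vehicle and 8.84, 8.92 and 9.0 under dexamethasone in ovariectomized females. The libraries overlapped in both states, with changes of -0.31 ± 0.15 (adjusted p = 0.105) and 0.11 ± 0.15 (adjusted p = 0.605). In intact females the change was -0.11 without dexamethasone replicate 3 and -0.08 with library weights, neither of which passed, and it passed without dexamethasone replicate 1 (-0.46, adjusted p = 0.0307) and with the trend on length and GC content removed (-0.43, adjusted p = 0.0227). In the GRCm38 annotation 60.4% of the 50-base words of Rhbg also occurred in an overlapping gene on the same strand, Gm38392, so its values are uncertain.

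Lect2 read 11.91, 12.02 and 12.06 in intact vehicle libraries and 11.99, 11.94 and 11.38 after dexamethasone, a change of -0.23 ± 0.14 (adjusted p = 0.206). Without dexamethasone replicate 3 that change was -0.0325 (adjusted p of 0.81). In ovariectomized females it read 11.95, 11.82 and 12.19 under vehicle and 11.73, 11.59 and 11.79 under dexamethasone. The treated libraries were all lower there, although the change of -0.28 ± 0.14 did not pass (adjusted p = 0.134). It passed with only the groups compared (-0.28, adjusted p = 0.0494).

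Counted together in ovariectomized females, 5 of the 10 genes fell (Lgr5, Rnf43, Znrf3, Nkd1 and Tbx3) and 1 rose (Glul), where 19.4% of all genes tested fell and 21.3% rose. The median log2 fold change was -0.32, against -0.00 for all genes. The libraries did not overlap for 8 of the 10, lower in 7 and higher in 1, against 26.5% and 28.1% of all genes. The count of 6 calls dropped to 3 without vehicle replicate 1, 2 or 3, or without dexamethasone replicate 1 or 3. Lgr5 and Rnf43 fell in both gonadal states with each library left out in turn.

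**Figure D2:**
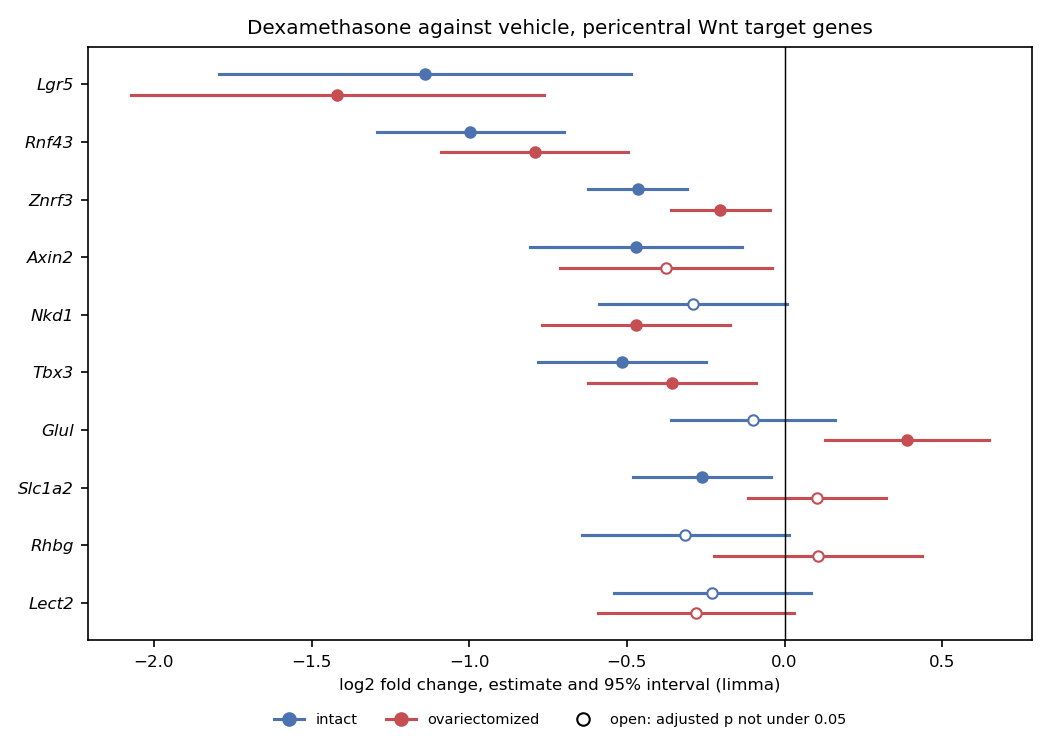
Log2 fold change of dexamethasone against vehicle (x axis, estimate and 95% interval from limma) for the 10 genes (y axis) in intact and ovariectomized females, with filled points where the adjusted p was under 0.05. The intervals of Lgr5, Rnf43, Znrf3, Axin2 and Tbx3 lie below 0 in both states, and that of Glul lies above 0 in ovariectomized females, where quantile normalization ended its call.

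The response itself was compared between gonadal states as the ovariectomized minus the intact log2 fold change. By limma, 0 of the 10 genes passed this test, where 24.9% of all genes tested did. An unadjusted p under 0.05 was reached by 3 of the 10, and by at least the same 24.9% of all genes. Those 3 were Glul (0.49 ± 0.17, 95% interval 0.12 to 0.86, adjusted p = 0.0533), Slc1a2 (0.37 ± 0.14, 0.06 to 0.68, adjusted p = 0.0781) and Znrf3 (0.26 ± 0.10, 0.04 to 0.48, adjusted p = 0.0783). In each the value was higher in ovariectomized females. The Glul difference passed without intact dexamethasone replicate 2 (0.59, adjusted p = 0.0228) or without ovariectomized dexamethasone replicate 3 (0.56, adjusted p = 0.0487), and Slc1a2 without intact dexamethasone replicate 2 (0.49, adjusted p = 0.0118). Znrf3 passed without ovariectomized dexamethasone replicate 1 (0.33, adjusted p = 0.0303).

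For Lgr5 the difference between responses was -0.28, with a 95% interval from -1.20 to 0.65, and for Rnf43 it was 0.20, from -0.22 to 0.62. These intervals hold no difference as well as sizable ones in either direction. The median over the 10 genes was 0.18, against 0.01 for all genes. The comparisons in intact and ovariectomized females share no libraries.

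Ovariectomy under vehicle changed 0 of the 10 genes by limma at an adjusted p under 0.05, where 27.9% of all genes tested changed. At an unadjusted p under 0.05, 2 were lower: Rhbg (-0.33 ± 0.15, adjusted p = 0.117) and Znrf3 (-0.16 ± 0.072, adjusted p = 0.115). At least the same 27.9% of all genes had an unadjusted p under 0.05, counting both directions. Lgr5, Rnf43 and Znrf3 were lower in every ovariectomized vehicle library than in every intact one, as were 24.4% of all genes. The Lgr5 difference was -0.26 ± 0.30 (adjusted p = 0.542). When only the vehicle groups were fitted, Lgr5 (adjusted p = 0.0301) and Rhbg (adjusted p = 0.0431) passed. Removing the trend on length and GC content passed Rhbg (-0.48, adjusted p = 0.0309). Znrf3 passed in 1 of 18 alternatives (adjusted p = 0.0229).

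Under dexamethasone, Glul was higher in ovariectomized than in intact females by 0.44 ± 0.12 (adjusted p = 0.0357), the 1 gene of the 10 that passed, where 7.74% of all genes rose. Its 3 ovariectomized libraries were all above the intact ones, as for 19.5% of all genes. This call was lost in 5 of the 6 fits that left out a library, with values of 0.30 to 0.51, namely intact dexamethasone replicates 1 and 3 and ovariectomized dexamethasone replicates 1, 2 and 3. It was also lost after quantile normalization (0.23, adjusted p = 0.242). Lgr5 was -0.54 ± 0.30 (adjusted p = 0.236) and passed in 1 of 18 alternatives (adjusted p = 0.0429). This comparison uses the same treated libraries as the dexamethasone comparisons above.

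The likeness of the 10 genes over the 12 libraries differed between pairs. Of their 45 pairs, 28 had a Pearson r above 0.5 and 4 were negative, with a median of 0.615 and a range from -0.341 to 0.946. Axin2 and Tbx3 were the most alike pair (r = 0.946), and Rnf43 and Znrf3 followed each other at r = 0.936. Glul was most like Slc1a2 among the 10 genes (r = 0.669). The 12 libraries fall into 4 groups, so these values hold the differences between groups as well as the spread within them, and they are descriptions. The same figures for pairs of other genes were not computed, so the count cannot be set against a share over all genes.

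Over all 12964 other genes, the patterns most like Lgr5 were those of Rhpn2 (r = 0.975) and Dclk3 (r = 0.974), and the most alike member, Rnf43, ranked 140. Rnf43 was most like Aqp9 (r = 0.992) and Igsf5 (r = 0.988), and Znrf3 most like Aldh5a1 (r = 0.976) and Ppara (r = 0.975). Axin2 was most like Faah (r = 0.965) and Pklr (r = 0.96), with Tbx3 at rank 5. Tbx3 was most like Habp4 (r = 0.965) and Npc1 (r = 0.947), with Axin2 at rank 3. The most alike member ranked 208 for Rnf43 and 117 for Znrf3. For these 5 genes, as for the 5 that follow, the most alike gene lay outside the set. Nearly all of the 12964 genes compared lie outside the set, so this does not show whether the members are alike.

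Glul was most like Rgp1 (r = 0.923) and Psmd13 (r = 0.87), and Slc1a2 most like Rdh9 (r = 0.897) and Gga2 (r = 0.892). Lect2 was most like Dnph1 (r = 0.935) and Oaf (r = 0.904), Rhbg most like Tnfaip2 (r = 0.886) and Arrdc3 (r = 0.851), and Nkd1 most like Acnat1 (r = 0.956) and Ngfr (r = 0.922). The most alike member ranked 252 for Glul, 290 for Slc1a2, 53 for Lect2, 53 for Rhbg and 24 for Nkd1. Each r is over the same 12 libraries.

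Upstream of the targets, Wnt pathway genes were counted in a list of 66 ligands, receptors, inhibitors and signal carriers, of which 50 passed the filter on low values. In intact females 18 of the 50 fell and 5 rose with a median of -0.14, where 25.9% of all genes fell and 22.8% rose. In ovariectomized females 9 fell and 8 rose (9 and 5 after quantile normalization), with a median of -0.03, and neither count was above the shares over all genes, of which 19.4% fell and 21.3% rose. The count of 8 rises was 4 without vehicle replicate 1, 5 without vehicle replicate 3 and 4 without dexamethasone replicate 3. The frizzled and LRP receptors, Lgr4 and Ryk held 5 falls and 0 rises among 10 in intact females, and 2 falls and 1 rise in ovariectomized females.

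Among the ligands and their secretion, Porcn, the acyltransferase that lipidates Wnt proteins, rose by 0.90 ± 0.21 in intact females (adjusted p = 0.00444) and by 0.68 ± 0.21 in ovariectomized females (adjusted p = 0.024). The rise in ovariectomized females was not called without vehicle replicate 1 or 3 or dexamethasone replicate 1, with values of 0.52 and above and an adjusted p of up to 0.0964. Wnt2, a ligand of liver endothelium, read 6.56, 6.33 and 6.49 in intact vehicle libraries and 6.92, 6.92 and 6.72 after dexamethasone, without overlap, and rose by 0.39 ± 0.089 (adjusted p = 0.00352). In ovariectomized females it read 6.78, 6.67 and 6.85 under vehicle and 6.80, 6.82 and 6.72 under dexamethasone, a change of 0.02 ± 0.089 (adjusted p = 0.895). The difference between the responses of Wnt2 was -0.38 ± 0.13 (adjusted p = 0.0481), and it missed the threshold in 15 of 23 alternatives. Wnt9b, the central-vein ligand, changed by 0.09 ± 0.17 and 0.37 ± 0.17 and Rspo3, the R-spondin of the same cells, by 0.32 ± 0.13 and -0.04 ± 0.13 in intact and ovariectomized females, none of which passed. Rspo3 in intact females did pass in 4 of 18 alternatives, among them without dexamethasone replicate 3 (0.43, adjusted p = 0.0176). Wnt9b in ovariectomized females passed in 4 of 17, among them without vehicle replicate 3 (0.56, adjusted p = 0.0203).

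Of the receptors, Fzd4 read 9.51, 9.51 and 9.23 in intact vehicle libraries and 8.08, 8.17 and 7.88 after dexamethasone. Under ovariectomy it read 8.36, 8.59 and 8.30 with vehicle and 8.10, 8.75 and 8.39 with dexamethasone. Only the intact vehicle libraries stood high, above all 9 others. Fzd4 fell by 1.37 ± 0.15 with dexamethasone in intact females (adjusted p = 3.35e-05) and changed by -0.00 ± 0.15 in ovariectomized females, and the difference of 1.37 ± 0.21 passed (adjusted p = 0.00134). Fzd8 fell by 0.94 ± 0.20 in intact females (adjusted p = 0.00248), and its change of -0.51 ± 0.20 in ovariectomized females did not pass (adjusted p = 0.0621).

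Ctnnb1, which encodes beta-catenin, read 12.84, 12.69 and 12.87 in intact vehicle libraries and 12.22, 12.29 and 12.33 after dexamethasone. Under ovariectomy it read 12.60, 12.55 and 12.60 with vehicle and 12.35, 12.33 and 12.37 with dexamethasone. The treated libraries were lower in both states. Ctnnb1 fell by 0.52 ± 0.054 in intact females (adjusted p = 2.33e-05) and by 0.23 ± 0.054 in ovariectomized females (adjusted p = 0.00548), and the difference of 0.29 ± 0.076 passed (adjusted p = 0.0165). After quantile normalization the difference was 0.13 with an adjusted p of 0.257.

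Further down the pathway, Tnks, a tankyrase that marks Axin proteins for degradation, moved in opposite directions. It read 8.40, 8.03 and 8.003 under vehicle and 7.39, 7.41 and 7.56 under dexamethasone in intact females, and 7.56, 7.46 and 7.69 under vehicle and 8.15, 7.97 and 8.16 under dexamethasone in ovariectomized females. Tnks fell by 0.69 ± 0.11 in intact females (adjusted p = 0.000383) and rose by 0.52 ± 0.11 in ovariectomized females (adjusted p = 0.00302), and the difference of 1.22 ± 0.16 passed (adjusted p = 0.000644). Tle2, a Groucho-type corepressor, fell by 0.72 ± 0.12 in ovariectomized females (adjusted p = 0.00077), and its change of -0.14 ± 0.12 in intact females did not pass. Apc, the scaffold of the degradation complex, changed by -0.13 ± 0.070 and 0.06 ± 0.070, and Tcf7l2, the main TCF factor of hepatocytes, by 0.23 ± 0.10 and -0.18 ± 0.10, none of which passed. Tcf7l2 in intact females did pass in 3 of 18 alternatives, among them without dexamethasone replicate 3 (0.32, adjusted p = 0.0227). Apc in intact females passed with library weights (-0.15, adjusted p = 0.0247).

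**Figure D3:**
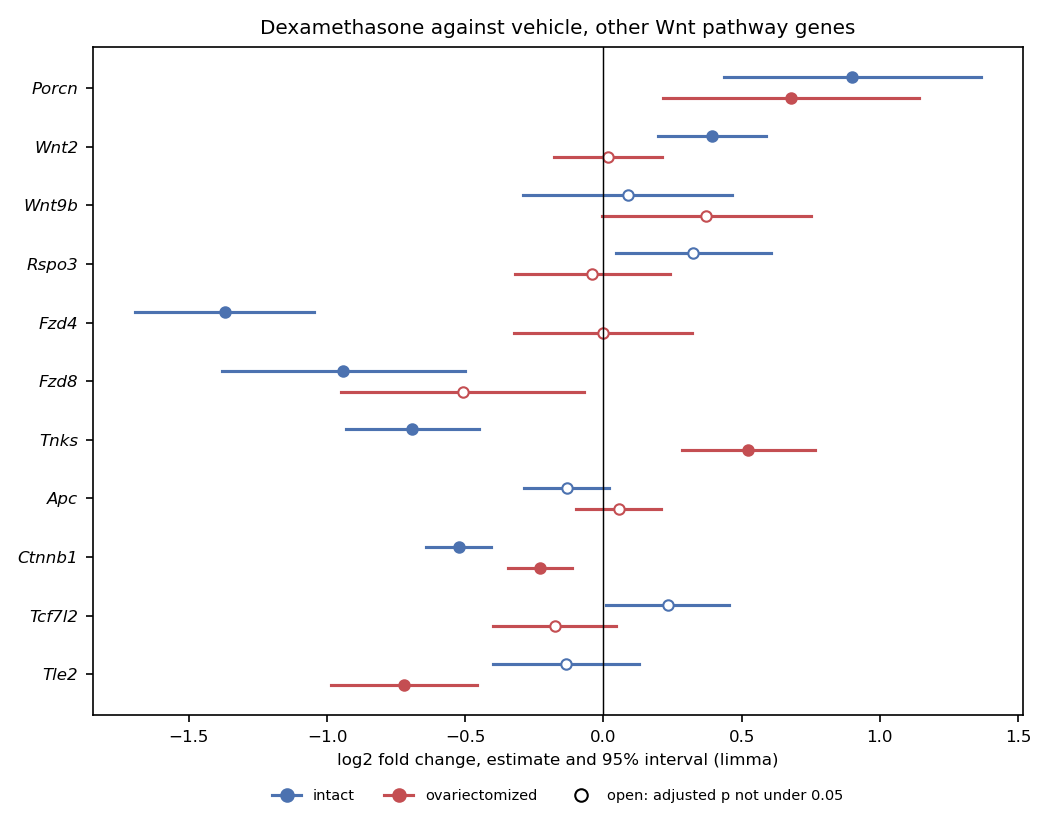
Log2 fold change of dexamethasone against vehicle (x axis, estimate and 95% interval from limma) for 11 other Wnt pathway genes (y axis) in intact and ovariectomized females, with filled points where the adjusted p was under 0.05. Ctnnb1 was below 0 and Porcn above 0 in both states, while Tnks and Fzd4 differed between the states.

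Genes of the wider lobule were counted in lists of 21 other pericentral genes and 22 periportal genes. Levels in whole liver do not show in which zone a gene changed. Of all genes tested, 25.9% fell and 22.8% rose in intact females, and 19.4% fell and 21.3% rose in ovariectomized females. In intact females 12 of the 21 pericentral genes fell and 3 rose with a median of -0.46, and 7 of the 22 periportal genes fell and 8 rose with a median of -0.10. In ovariectomized females 4 of the pericentral genes fell and 4 rose (7 and 4 after quantile normalization) with a median of -0.19, close to the shares over all genes in each direction, and 3 of the periportal genes fell and 9 rose with a median of 0.01. The count of 3 pericentral rises in intact females was 1 without vehicle replicate 1.

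Aldh3a2, a fatty aldehyde dehydrogenase, fell by 1.40 ± 0.12 in intact females (adjusted p = 9.52e-06), and Cyp2a5, a drug-metabolizing P450, fell by 1.20 ± 0.17 (adjusted p = 0.000175). Cyp2a5 also fell in ovariectomized females, by 0.79 ± 0.17 (adjusted p = 0.00336). Aldh3a2 read 13.63, 13.73 and 13.52 under vehicle and 12.92, 13.27 and 13.09 under dexamethasone there, again lower without overlap. Cyp7a1, the rate-limiting enzyme of bile acid synthesis, rose by 1.16 ± 0.18 in ovariectomized females (adjusted p = 0.000516), and Cyp27a1, another enzyme of that route, rose by 0.88 ± 0.086 (adjusted p = 2.57e-05). Intact females had higher Cyp27a1 in every dexamethasone library (14.26, 14.30 and 14.30) than in every vehicle library (13.81, 13.52 and 13.62). Their Cyp7a1 libraries overlapped. Cyp2e1, a classical beta-catenin dependent P450, changed by -0.31 ± 0.14 in intact and 0.34 ± 0.14 in ovariectomized females, neither of which passed. The change did pass in 5 of 18 alternatives in intact and in 4 of 18 in ovariectomized females.

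On the periportal side, the serine dehydratases Sds and Sdsl rose by 1.38 ± 0.24 (adjusted p = 0.000655) and 1.40 ± 0.17 (adjusted p = 6.84e-05) in intact females. Sds and Sdsl rose in ovariectomized females by 1.30 ± 0.24 (adjusted p = 0.00133) and 1.19 ± 0.17 (adjusted p = 0.000295). Cps1, the first enzyme of the urea cycle, rose by 1.38 ± 0.12 there (adjusted p = 1.32e-05). It was also higher in every intact dexamethasone library (17.23, 17.29 and 17.44) than in every intact vehicle library (17.14, 16.91 and 16.90).

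**Figure D4:**
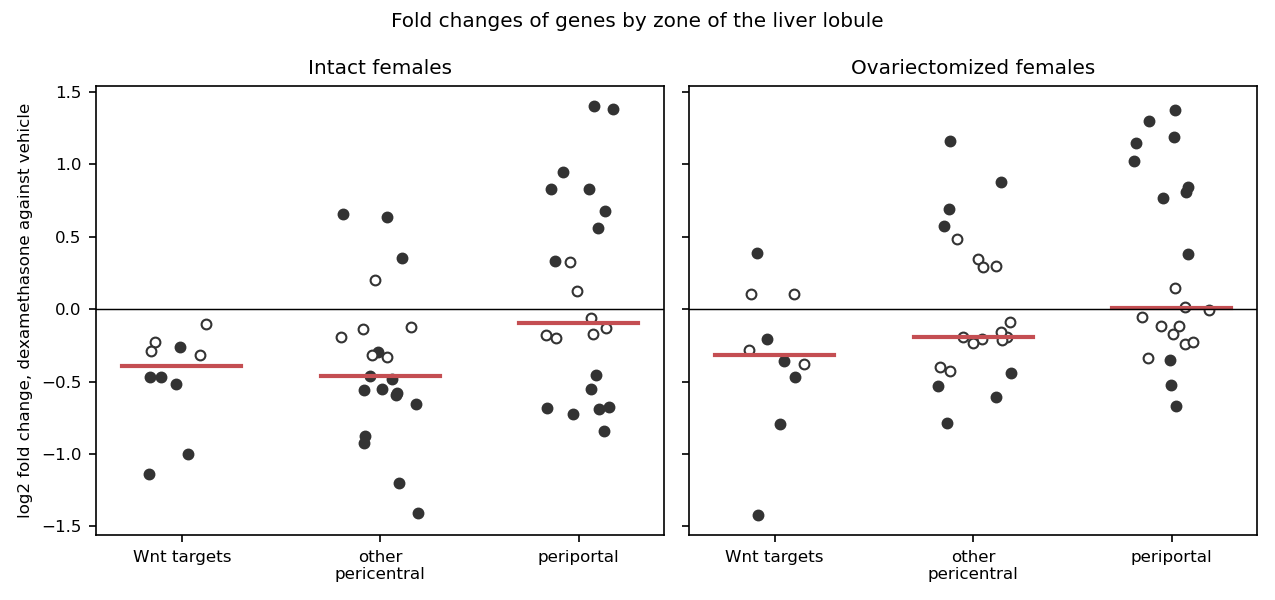
Log2 fold change of dexamethasone against vehicle (y axis) for the 10 Wnt target genes, 21 other pericentral genes and 22 periportal genes (x axis) in intact and ovariectomized females. Each point is a gene, filled where the adjusted p was under 0.05, and red lines mark the medians, which were -0.39, -0.46 and -0.10 in intact females and -0.32, -0.19 and 0.01 in ovariectomized females.

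Around Glul, Slc1a2 and Rhbg, a list of 19 genes of glutamine, glutamate and ammonia handling had 15 above the filter, of which 4 rose and 5 fell in intact females and 5 rose and 2 fell in ovariectomized females. Of all genes tested, 22.8% rose and 25.9% fell in intact females and 21.3% rose and 19.4% fell in ovariectomized females. Slc1a5, a neutral amino acid transporter that carries glutamine, rose by 1.14 ± 0.14 in intact females (adjusted p = 6.67e-05). Slc38a3, the glutamine transporter of system N, fell by 0.80 ± 0.11 there (adjusted p = 0.000157). Both moved the same way without overlap in ovariectomized females. Slc1a5 read 7.69, 7.64 and 7.60 under vehicle and 8.41, 8.01 and 8.19 under dexamethasone. Slc38a3 read 15.94, 15.93 and 16.28 under vehicle and 15.35, 15.35 and 15.47 under dexamethasone. Got1, cytosolic aspartate aminotransferase, rose by 1.06 ± 0.22 in intact females (adjusted p = 0.00197) and by 1.02 ± 0.22 in ovariectomized females (adjusted p = 0.00329). Gpt2, an alanine aminotransferase, rose by 1.08 ± 0.089 in ovariectomized females (adjusted p = 8.4e-06). Its intact libraries read 14.08, 14.10 and 13.87 under vehicle and 14.53, 14.47 and 14.485 under dexamethasone, also higher without overlap.

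Markers of the cell types in liver were present in every library, and none of those measured was at 0. Tf and Adgre1, also on these lists, were not analysed here. Each sum below adds levels on the linear scale, so the genes with the highest levels weigh most. Alb, a hepatocyte marker, alone read 21.984, 21.825 and 22.025 in intact vehicle libraries, so the hepatocyte sum is mostly Alb. The log2 of the summed level of 9 hepatocyte markers was 22.12 to 22.28 in intact vehicle, 21.95 to 22.07 in intact dexamethasone, 21.98 to 22.12 in ovariectomized vehicle and 22.09 to 22.30 in ovariectomized dexamethasone libraries. In intact females 1 of these markers rose and 2 fell after dexamethasone. In ovariectomized females 3 rose and 0 fell (2 rose and 3 fell after quantile normalization). Of all genes tested, 22.8% rose and 25.9% fell in intact females and 21.3% rose and 19.4% fell in ovariectomized females. The 13 endothelial markers summed to 12.94 to 13.12, 13.25 to 13.61, 13.01 to 13.25 and 13.03 to 13.27 in the same order, with 4 rises and 1 fall in intact and 2 rises and 3 falls in ovariectomized females. The endothelial sum was higher in every intact dexamethasone library than in every intact vehicle library, as was Wnt2, although 8 of the 13 markers did not pass there, and their part in the results was not tested.

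Of 10 stellate cell markers 6 rose and 0 fell in intact females and 2 rose and 0 fell in ovariectomized females, with sums of 13.42 to 13.79 in intact vehicle, 14.13 to 14.23 in intact dexamethasone, 13.41 to 13.83 in ovariectomized vehicle and 13.65 to 13.90 in ovariectomized dexamethasone libraries. Of 7 Kupffer cell markers 2 fell in intact and 3 in ovariectomized females, with sums of 13.60 to 13.67, 13.35 to 13.48, 13.13 to 13.35 and 12.88 to 13.21. Of 9 leukocyte markers 4 and 6 fell, with sums of 9.29 to 9.57, 9.01 to 9.17, 9.27 to 9.39 and 8.86 to 8.94. Over all genes tested, 22.8% rose and 25.9% fell in intact females and 21.3% rose and 19.4% fell in ovariectomized females. Of 8 cholangiocyte markers 1 rose in intact and 3 fell in ovariectomized females, with sums of 11.12 to 11.20, 11.18 to 11.39, 11.44 to 11.70 and 11.02 to 11.27. Spp1, a cholangiocyte marker, alone read 10.79, 10.84 and 10.86 in intact vehicle libraries, so the cholangiocyte sum is mostly Spp1. The part of all these cell types in the levels of the 10 genes was not tested.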

How the data were processed

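Per the labels' protocols, TruSeq libraries of liver RNA, 12 in number, were sequenced on an Illumina NextSeq500. Trim Galore, TopHat2, HTSeq, DESeq and DESeq2 and the mouse build mm9 are named without a role or version in the submitters' processing notes. The file analysed is a single table of normalized log2 expression values that the authors deposited, per the labels' description. How they were put on the log2 scale, and with which annotation, is not given in the sources used here. Values ran from -2.22 to 22.03, and low values may have been shrunk, which was not tested and would understate the fold changes of low genes. Read depth is unknown, so no counting interval is given. Whether counting used strand is not given either. Exons of Tbx3, Axin2, Slc1a2 and Glul overlap a gene on the opposite strand in the GRCm38 annotation, and their reads could not be told apart from its reads without strand.

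The table had 24962 entries, of which the highest by mean was taken for each symbol, and the 12965 symbols with a mean of at least 4 were tested. The 4 groups were fitted together with limma 3.58.1 in R 4.3.3 (lmFit, contrasts.fit, eBayes with a variance trend, 8 residual degrees of freedom), and 5 comparisons were adjusted by Benjamini-Hochberg over all genes tested at a threshold of 0.05. The fit was tested on simulated data. The 10 genes and the lists were chosen with earlier results of these data known. Named from each other list were up to 3 genes per comparison that passed, by size, and Wnt2, Wnt9b, Rspo3, Tcf7l2, Ctnnb1, Apc and Cyp2e1 whatever their value, not all of which are printed. Cell type markers are given as lists. For likeness, the Pearson r of each of the 10 genes with every gene tested was computed, and the 2 most alike genes outside the set and the most alike member were taken. Alternatives were a filter at a mean of 6, no filter, 8 added on the linear scale, recentring, a robust prior, quantile normalization, library weights, no variance trend, the replicate number as a block, only the groups compared, a minimum absolute log2 fold change of 1 and each library left out. Taking out, library by library, the trend over length and GC of the transcripts (splines with 4 degrees of freedom; 12425 genes, 95.8%) was chosen after seeing the data. Promoter and transcript sequences came from GRCm38, which is not the build of the table.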

Additional observations from a re-analysis of the deposited data

Results flagged for a closer look

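None of the 10 Wnt target genes differed between gonadal states in its dexamethasone response at an adjusted p under 0.05 by limma, and 3 had an unadjusted p under 0.05. Of all genes tested 24.9% passed, and at least that share had an unadjusted p under 0.05. The 15 genes below, from the other lists, passed the same test, with a log2 response that was higher in ovariectomized than in intact females for 11 and lower for 4. Most of them were named because they passed it, so their number says nothing about the lists or about the 10 genes. Among Wnt pathway genes the difference was 1.37 for Fzd4, 1.22 for Tnks, 0.29 for Ctnnb1, -0.38 for Wnt2 and -0.59 for Tle2. Fzd4 and Tnks passed in 23 of 23 alternatives. Ctnnb1 was 0.13 after quantile normalization (adjusted p = 0.257), and Tle2 missed the threshold in 6 of 23 alternatives, among them the fits without intact vehicle replicate 1 or 3, ovariectomized vehicle replicate 2 or 3 or ovariectomized dexamethasone replicate 1, with values of -0.70 to -0.44 over the libraries left out. Wnt2 missed it in 15 of 23.

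Pericentral genes outside the set differed by 0.97 (Cyp7a1), 0.87 (Aldh3a2), 0.82 (Por, the electron donor of the P450 enzymes) and 0.66 (Cyp2e1). Cyp2e1 missed the threshold in 12 of 23 alternatives, and Cyp7a1 did so, among others, after quantile normalization and without intact dexamethasone replicate 1. Periportal genes differed by 1.04 (Cps1), 0.64 (Gldc, of the glycine cleavage system), 0.62 (Pigr, the polymeric immunoglobulin receptor) and -0.92 (G6pc, glucose-6-phosphatase). The Pigr difference was 0.33 after quantile normalization (adjusted p = 0.0635). G6pc rose in intact females by 0.68 and changed by -0.24 in ovariectomized females, and its difference missed the threshold in 9 of 23 alternatives. Of the glutamine and ammonia genes, Gpt2 differed by 0.61 and Slc1a5 by -0.57, the latter past the threshold in 8 of 23 alternatives.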

How the results depend on the processing

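Counts of the 10 genes past the threshold were recomputed under 18 alternatives for each 2-group comparison and 23 for the difference between responses. The main counts were 6 with dexamethasone in intact and 6 in ovariectomized females, 0 and 1 for ovariectomy under vehicle and dexamethasone, and 0 for the difference. With a minimum absolute log2 fold change of 1 they were 1, 1, 0, 0 and 0. Of all 12965 genes, 135 rose and 178 fell in intact and 200 and 159 in ovariectomized females with that minimum. Library weights gave 2 and 4 for ovariectomy under vehicle and dexamethasone and 3 for the difference. Calls over all genes grew as well with weights. Rises and falls went from 1608 and 2010 to 2675 and 3244 for ovariectomy under vehicle. They went from 1004 and 658 to 3289 and 2488 under dexamethasone, and from 1983 and 1251 to 3651 and 3008 for the difference. Fitting only the groups compared gave 2 and 0 for ovariectomy, removing the length and GC trend gave 1 under vehicle, and no filter and quantile normalization gave 0 under dexamethasone. Over all genes, the vehicle comparison held 1503 rises and 1887 falls with only the groups compared, and 1178 and 1268 with the trend removed. With each library left out, counts ran from 4 to 7 and from 3 to 6 with dexamethasone, from 0 to 0 and from 0 to 2 for ovariectomy, and from 0 to 2 for the difference. With the replicate number as a block the dexamethasone counts were 6 and 6. Same-numbered libraries deviated together with r above 0.1 in 6 of 18 pairs (-0.231 to 0.396), so the numbers were not taken to pair the libraries. The scaling alternatives changed the split of all genes with a passing difference from 1983 higher and 1251 lower to 1419 and 1308 (quantile), and for ovariectomy under dexamethasone from 1004 and 658 to 728 and 782 (recentred).

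Changes of sign occurred among values that did not pass. After quantile normalization they were 0.11 for Glul and -0.00642 for Wnt9b with dexamethasone in intact females, -0.00148 for Apc with dexamethasone in ovariectomized females, and 0.11 for Glul, 0.0266 for Tbx3 and 0.0121 for Lect2 in ovariectomized against intact females under vehicle. In that vehicle comparison Tbx3 was also 0.00212 after recentring, 0.0433 with library weights and 0.0326 with the length and GC trend removed, Nkd1 was -0.0312 with library weights and Slc1a2 0.0448 with the trend removed. Removing that trend gave 0.0492 for Apc in intact females and 0.0677 for the difference of Lect2. Wnt2 in ovariectomized females was -0.00759 after recentring and -0.0152 with library weights, which also gave -0.13 for Rhbg under dexamethasone and -0.0152 for the difference of Tbx3. With single libraries left out, values changed sign within these ranges: for dexamethasone in intact females Glul -0.21 to 0.0431 and Wnt9b -0.0153 to 0.15, in ovariectomized females Rspo3 -0.14 to 0.0438 and Wnt2 -0.0313 to 0.0572. For ovariectomy under vehicle they were Axin2 -0.0401 to 0.13, Lect2 -0.11 to 0.0709, Nkd1 -0.0658 to 0.0773 and Tbx3 -0.0509 to 0.0528. Under dexamethasone they were Axin2 -0.0281 to 0.29, Lect2 -0.26 to 0.0449, Rhbg -0.12 to 0.23, Rnf43 -0.13 to 0.23 and Tbx3 -0.0223 to 0.26, and for the difference Axin2 -0.0902 to 0.22, Lect2 -0.25 to 0.0574, Lgr5 -0.61 to 0.0764 and Tbx3 -0.0183 to 0.26. The cause of these changes was not tested. Depth is unknown, and 3 libraries a group limit the precision.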
